A study of Homo sapiens with 3 samples.

Results

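The ZNF genes, a large family of human zinc finger genes, were followed in ribosome profiling libraries from HEK293T cells with and without the aminoglycoside G418. A gene was a member when its symbol was ZNF followed by a digit, when its transcript was listed in all 3 libraries, and when it had a mean of at least 64 deposited counts in the coding sequence (CDS). This gave 144 of the 306 ZNF genes listed in any library. Of the 272 listed in all 3 libraries, the rest fell under the minimum. Values of the libraries are given in the order Untreated A, Untreated B, G418 A wherever none is named. ZNF461, with 69, 77 and 48 counts, was the member just inside the limit, and ZNF337, with 34, 81 and 75 counts, lay just outside. The members were set beside 6628 other genes whose mean CDS counts lay in the same range, out of 7081 transcripts over the minimum.

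HEK293T cells derive from human embryonic kidney and express the large T antigen of SV40. The untreated group had 2 libraries, A and B, and the treated group 1 library, G418 A, from cells given 500 µg/mL G418 for 24 h. In ribosome profiling the mRNA stretches shielded from nuclease by ribosomes are sequenced, so reads on a region measure how many ribosomes sat there. The G418 group is a single library, so a value from it carries no error between cultures. The study describes its libraries as biological replicates, and the labels do not say how the cultures of the untreated pair were kept apart, so the p-values measure only the spread between these libraries. The libraries held 5857230, 9477972 and 7216039 reads. Members took 0.574%, 0.570% and 0.564% of the CDS counts of the 7081 transcripts. Of the markers looked up for the line, VIM, NEFM and NEFL were listed in all libraries and PAX2 in Untreated B alone. PTPRC, ALB, HBB, CD3E and KRT5 were not listed, and COL1A1, a collagen gene, was listed at 7.98 to 10.7 RPKM.

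A classical zinc finger is a short fold in which a pair of cysteines and a pair of histidines hold a zinc ion, and a row of such fingers reads DNA. Many human ZNF proteins also carry a KRAB domain, which recruits TRIM28 (KAP1) and, through it, the histone methyltransferase SETDB1 and HP1 proteins, and so silences transposable elements and other targets. These genes arose by repeated duplication and lie in clusters, many of them on chromosome 19. At the end of their coding sequences, as of others, release factors recognise UGA, UAG or UAA, and G418 lowers the accuracy with which ribosomes do so.

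The members were clustered in the genome, and 73 of 144 lay on chromosome 19. Next came chromosome 7 with 14 and chromosome 16 with 8. Translation of the annotated coding sequence was possible for 140 members, of which 134 held at least 1 classical finger and 112 held 5 or more (median 10, highest 33). A KRAB A-box pattern was found in 64. The search used 1 fixed pattern of residues, so a member without a match may still carry a KRAB domain. Among other genes, 0.64% held 5 or more fingers. Members were a little longer in the CDS (median 1762.5 nt against 1416.0 nt) and less densely read (median of mean CDS counts 125 against 294). These CDS lengths are as deposited, without the first 18 nt and last 15 nt.

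The stop codons on which the readthrough results turn are shown as 30 bases of spliced transcript sequence, written as DNA. These are 15 before the stop codon, the stop codon in capitals, and 12 after it. The first group had the most readthrough reads in G418 A among members whose transcript was matched in the annotation (ZNF264 is not shown), and the second had the most CDS counts in G418 A with no readthrough read.
ZNF460: gaaaccctaccattgTAAcagatgtggaaa
ZNF282: cctcctgagcgagacTAGggctgggctggg
ZNF593: atggatacctctaccTGAcatggcctgaag
ZNF622: gtccaagtgagattcTGAgagtctgctggg
ZNF302: aaaccgtttgaagttTAGaaatgcaggaaa
ZNF274: aaacagcctacctcaTAGctctcaagccag
ZNF253: ttaattagcataagaTAAttcatactggag
ZNF207: tcgcaagccctgccaTAGgacaggctgagg
ZNF644: gccgaagcagcttcaTAGaaccaggaaacc
ZNF24: aatgttgtgaaagttTAAgaaattgaaaaa

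On hg38 these stop codons lie at chr19:57292228-57292230 (ZNF460, plus strand), chr7:149224645-149224647 (ZNF282, plus), chr1:26170714-26170716 (ZNF593, plus), chr5:16451657-16451659 (ZNF622, minus), chr19:34685235-34685237 (ZNF302, plus), chr19:58213141-58213143 (ZNF274, plus) and chr19:19892745-19892747 (ZNF253, plus). The second group lies at chr17:32373407-32373409 (ZNF207, plus), chr1:90916798-90916800 (ZNF644, minus) and chr18:35337232-35337234 (ZNF24, minus). All but 1 of these 10 stop codons end the CDS in the last exon of the transcript. The exception was ZNF207, whose stop codon in the authors' transcript lay in exon 13 of 14 and is not the stop codon of the MANE Select transcript. Over all members, 133 used the MANE Select stop codon and 6 used another (ZNF207, ZNF215, ZNF407, ZNF483, ZNF544 and ZNF567).

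The members used stop codons differently from other genes. UGA ended 55 of 144 members (38.2%) against 50.2% of other genes. The difference of -11.99 percentage points was -8.82 with a doubled count minimum and -5.84 over every transcript listed in all 3 libraries. UAA ended 51 (35.4% against 28.2%) and UAG 38 (26.4% against 21.6%). With the next nucleotide taken into account, UAAU (14 members, 9.72% against 4.99%), UAAG (16, 11.1% against 6.86%) and UAGA (14, 9.72% against 5.99%) were more frequent. UGAC (8, 5.56% against 10.6%) and UGAG (18, 12.5% against 19.2%) were less so. Over all stop codons, C followed the stop codon in 16.7% of members and 22.9% of other genes. The 12 nucleotides after the stop codon had a median GC content of 41.7% in members and 50% in others. Sharing a chromosome did not go with sharing this usage, since the 379 other genes on chromosome 19 ended in UGA in 62.8% and in UAA in 13.2%, while the 73 members there ended in UGA in 39.7% and in UAA in 31.5%. Members with a KRAB match ended in UAA in 40.6% and those without in 32.9%. These are properties of the annotation, with no replicate error.

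The number of ribosomes on the CDS of the members gave no call between G418 and untreated cells. None of the 144 passed the test on CDS counts in either direction (edgeR quasi-likelihood test, Benjamini-Hochberg over 7081 transcripts, lowest adjusted p = 0.116), against 1.55% of all transcripts called higher and 0.494% called lower. At an unadjusted p under 0.05 there were 8 members (5.56%), against 12.8% of all transcripts, and DESeq2 called 0 at the adjusted and 1 at the unadjusted threshold, against 0.282% and 6.2% of all transcripts. With 1 G418 library, its spread was assumed to be that of the untreated pair. CDS reads do not tell less mRNA from fewer ribosomes per mRNA.

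The members as a group lay slightly lower in G418 A. Their median log2 change was -0.10 (quartiles -0.30 and 0.12), with 92 negative and 52 positive, against a median of 0.01 for other genes. It was -0.09 over each untreated library taken alone, while Untreated B over Untreated A gave -0.03. G418 A lay below both untreated libraries for 59 members (41.0%), against 35.4% of all transcripts, and above both for 34 (23.6%), against 36.9%.

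The members with a KRAB match lay lowest. Their median log2 change was -0.18 (n = 64), and 36 of them (56.3%) lay below both untreated libraries and 8 (12.5%) above both. The 76 members without a match had a median of -0.07, with 21 below both (27.6%) and 24 above both (31.6%). For the KRAB group the median was -0.24 with Untreated A as the only control and -0.16 with Untreated B, and Untreated B over Untreated A gave -0.10, a gap between untreated libraries of a size near that of the change. For the group without a match the median turned to 0.04 over Untreated A alone and 0.01 over Untreated B alone. Members on chromosome 19 had a median of -0.15 and those elsewhere -0.08, which turned to 0.06 over Untreated A alone. Untreated B over Untreated A gave -0.18 on chromosome 19, a gap between untreated libraries larger than the change, and 0.04 elsewhere. Of the members with a KRAB match 54 lie on chromosome 19, and of those without 16, so the splits overlap. The KRAB group also had fewer counts behind it (median of mean CDS counts 100.2 against 155), and with a doubled count minimum the medians were -0.24 (n = 21) with a match and -0.07 (n = 47) without.

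**Figure D1:**
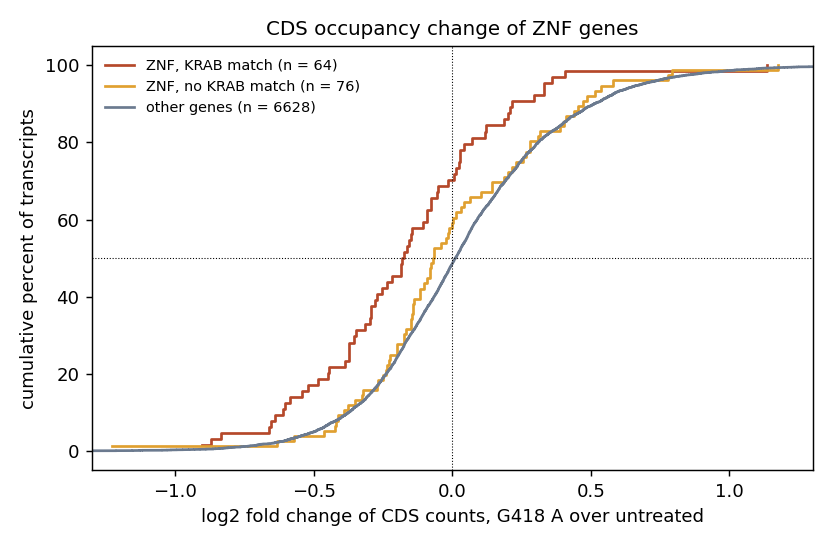
Cumulative distribution of the log2 fold change of CDS counts (x axis, G418 A over the 2 untreated libraries, edgeR) for ZNF genes with a KRAB match, ZNF genes without one, and other genes of the same CDS count range (y axis, percent of transcripts). The curve of the KRAB group lies to the left, with a median of -0.18, against -0.07 and 0.01.

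The most highly counted members hardly moved. ZNF207 (BUGZ), which binds spindle microtubules and the checkpoint protein BUB3, had 257, 230 and 261 RPKM (reads by CDS length and library size, as deposited), the highest CDS density of any member. ZNF638, which takes part in silencing unintegrated retroviral DNA, had 22.1, 22.7 and 20.7 RPKM. ZNF460, a KRAB zinc finger gene, had 65.0, 72.8 and 68.0 RPKM, with G418 A between the untreated libraries. ZNF644, which associates with the G9a and GLP methyltransferases, had 30.6, 21.9 and 27.4 RPKM, also between them. ZNF24, a SCAN-domain factor, had 98.1, 87.5 and 87.7 RPKM. Over the members the mean CDS density ran from 1.72 to 250 RPKM with a median of 9.34.

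The largest positive changes among the members did not pass the adjusted test. ZNF664 had 10.2, 8.97 and 22.6 RPKM, so that the treated library stood clear of both others (log2 change 1.17 ± 0.42 SE, adjusted p = 0.119). ZNF45 had 3.13, 5.02 and 9.55 RPKM (1.14 ± 0.40, adjusted p = 0.116), although the untreated libraries themselves differed by 0.66 on the log2 scale. ZNF212 had 5.28, 4.50 and 8.86 RPKM (0.79 ± 0.44, adjusted p = 0.457). ZNF76, a relative of the transcription factor ZNF143, had 3.15, 5.15 and 7.59 RPKM (0.78 ± 0.44, adjusted p = 0.469), again with a gap of 0.70 between the untreated libraries. ZNF384, a transcription factor known as a fusion partner in B-cell leukaemia, had 11.8, 14.5 and 20.9 RPKM (0.58 ± 0.28, adjusted p = 0.358). All adjusted p-values are from the edgeR fit over all transcripts.

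The largest negative changes were of like size and did not pass the test either. ZNF215 had 13.7, 10.9 and 5.50 RPKM, lowest in G418 A (log2 change -1.23 ± 0.49 SE, edgeR adjusted p = 0.207). Its stop codon in the authors' transcript is 1 of the 6 that are not the MANE Select stop. ZNF253 had 9.89, 8.92 and 5.29 RPKM (-0.90 ± 0.44, adjusted p = 0.359). ZNF85 had 14.9, 13.5 and 8.21 RPKM (-0.87 ± 0.33, adjusted p = 0.176). ZNF615 had 8.45, 7.17 and 4.61 RPKM (-0.83 ± 0.40, adjusted p = 0.349). ZNF100 had 24.0, 16.4 and 13.3 RPKM (-0.68 ± 0.29, adjusted p = 0.262), with the untreated libraries 0.60 apart. The last 4 of these lie on chromosome 19, and ZNF253, ZNF85 and ZNF615 carry a KRAB match. ZNF100 was not matched in the annotation and so was not searched for one. Reads from near-identical paralogs can be credited to the wrong copy, since only the primary alignment of a read was kept, so values of single members of such families are uncertain.

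The co-repressor genes through which KRAB proteins act were counted in the same fit. Of the 25 names on that list, 21 were in the set, and 0 passed the adjusted test (4 at an unadjusted p under 0.05, lowest adjusted p = 0.303, edgeR), against 2.05% of all transcripts called in either direction and 12.8% at the unadjusted threshold. Their median log2 change was -0.14, with 13 below and 4 above both untreated libraries, against 35.4% and 36.9% of all transcripts. CBX5 (HP1-alpha) had 240, 262 and 198 RPKM (log2 change -0.43 ± 0.20 SE). CBX3 (HP1-gamma) had 653, 578 and 504 RPKM (-0.38 ± 0.19). HDAC1, a histone deacetylase, had 195, 215 and 168 RPKM (-0.38 ± 0.19). GATAD2A, a subunit of the NuRD complex, went the other way with 17.8, 22.9 and 31.5 RPKM (0.54 ± 0.25). ATF7IP, the partner of SETDB1, had 42.5, 47.3 and 37.0 RPKM (-0.37 ± 0.20).

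Other zinc finger families gave 0 adjusted calls as well (0 in each of 8 families, edgeR), against 2.05% of all transcripts. Their medians were -0.12 for 18 ZBTB genes, 0.03 for 3 ZSCAN, -0.28 for 4 ZKSCAN, -0.05 for 6 ZFP, -0.11 for 9 KLF or SP, 0.00 for 33 RNF and -0.01 for 10 ZC3H genes. At an unadjusted p under 0.05 the ZBTB genes had 1, ZKSCAN 1, RNF 6 and ZDHHC 4, and the other families 0, against 12.8% of all transcripts. The 12 ZDHHC genes, which encode palmitoyltransferases and not DNA-binding proteins, had a median of 0.46, with 10 of 12 above both untreated libraries (36.9% of all transcripts) and a lowest adjusted p of 0.0664.

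Relative to CDS density, the median ribosome density on the 5′UTR was higher in members than in other genes, with and without G418. Such a ratio does not tell more ribosomes on the 5′UTR from fewer on the CDS. The 5′UTR occupancy, the read density of the 5′UTR over that of the CDS, had a median over members of 0.263 and 0.369 in the untreated libraries and 0.307 in G418 A. The medians of other genes were 0.0508, 0.0739 and 0.0486. In each library the upper quartile of the other genes (0.266, 0.305 and 0.241) was near or below the median of the members. An occupancy above 1, with more ribosomes per base before the CDS than in it, was found for 14.6%, 18.8% and 15.3% of members and 6.92%, 6.33% and 5.12% of other genes. The 5′UTR reads amounted to 8.395, 8.27 and 8.31 per 100 CDS reads in members and 2.44, 2.54 and 2.22 in others. This contrast depended on the range of mean CDS counts. In the lowest range (64 to 127.7) the values were 11.9, 13.2 and 15.4 against 8.89, 8.29 and 7.64. In the middle range (up to 255.7) they hardly differed, with 4.99, 5.48 and 5.39 against 5.83, 5.41 and 5.16. The highest range gave 8.92, 7.63 and 6.56 against 1.82, 1.95 and 1.60, but there 1 gene held 71.2%, 69.8% and 65.5% of the member reads.

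**Figure D2:**
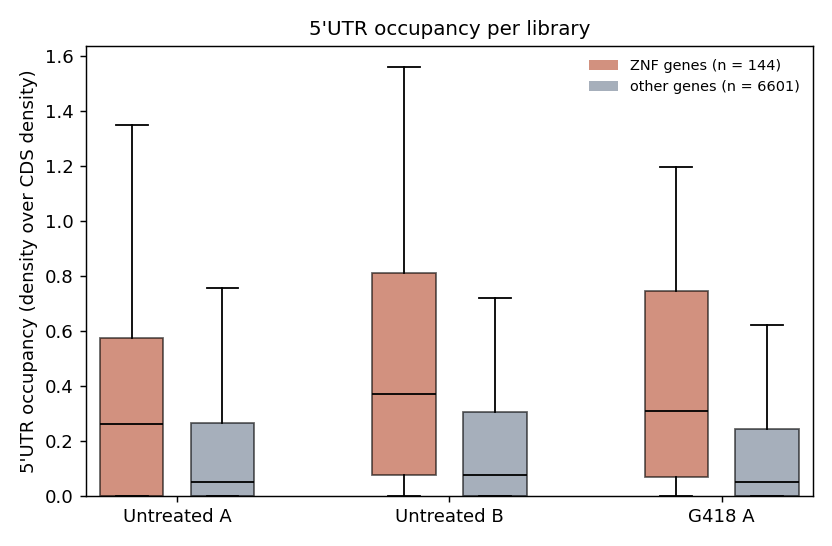
5′UTR occupancy (y axis, 5′UTR density over CDS density) of ZNF genes and of other genes in each library, as boxes from the lower to the upper quartile with the median as a line and whiskers from the 10th to the 90th percentile. Member medians of 0.263, 0.369 and 0.307 lie above those of other genes, 0.0508, 0.0739 and 0.0486.

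Members have longer 5′UTRs (median 194.5 nt against 132.0 nt) and more of them hold an upstream ATG (70 of 116, 60.3%, against 40.2%). The 5′UTR lengths are as deposited, a few nt short of the annotated ones. With an upstream ATG, the median occupancy was 0.437, 0.444 and 0.510 in members and 0.231, 0.265 and 0.233 in others. Without one, it was 0.109, 0.234 and 0.107 in members and 0.00, 0.00628 and 0.00 in others. Among 5′UTRs whose length lay in the quartiles of the members (114.5 to 301.0 nt), the medians were 0.332, 0.486 and 0.441 in members and 0.103, 0.137 and 0.107 in others. Within that length range, 5′UTRs with an upstream ATG had medians of 0.501, 0.792 and 0.636 in 35 members and 0.229, 0.279 and 0.245 in others. Those without one had 0.159, 0.323 and 0.155 in 25 members and 0.0584, 0.0892 and 0.0604 in others. In the lowest range of mean CDS counts (64 to 127.7) the medians were 0.261, 0.441 and 0.465 against 0.0289, 0.103 and 0.0655.

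The occupancy of the members did not move one way with G418. The pooled value, all 5′UTR reads over the number expected at CDS density, was 0.623 (exact Poisson 95% interval 0.594 to 0.652), 0.613 (0.591 to 0.636) and 0.560 (0.537 to 0.584). In other genes it was 0.160, 0.167 and 0.144. The ratio of G418 A to the untreated mean was 0.906 for members and 0.879 for others. However, ZNF146 alone gave 639, 833 and 532 of the 1836, 2922 and 2247 5′UTR reads of the members. Without it the pooled value was 0.470, 0.492 and 0.498, a ratio of 1.04. This gene, which codes for a protein made almost wholly of zinc fingers, was singled out after its values were seen. Of the 66 members with at least 20 5′UTR reads, 25 were higher in G418 A than in both untreated libraries. Lower than both were 19, and 22 lay between. The shares higher and lower were 37.9% and 28.8%, against 23.2% and 45.0% of the 2405 other genes with at least 20 such reads.

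The members with the highest 5′UTR occupancy were all but 1 on chromosome 19. ZNF585A had an occupancy of 7.59, 7.02 and 4.602, from 43, 92 and 45 reads. Its neighbour ZNF585B had 5.72, 3.16 and 2.70, from 41, 43 and 26 reads. Both genes were lower in G418 A than in either untreated library. They carry the same 30 bases around the stop codon, identical at 30 of 30 positions, while the other 138 sequences of the members were each found once.
ZNF585A: cagagcagccacgctTGAgagaaacagtgt
ZNF585B: cagagcagccacgctTGAgagaaacagtgt
These stop codons lie on hg38 at chr19:37151589-37151591 and chr19:37185227-37185229, both on the minus strand, and reads of the pair may be shared between them.

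ZNF749 had an occupancy of 1.60, 6.30 and 1.56, so that its rank rested on Untreated B, with 116 reads against 24 and 24. ZNF544 had 1.63, 1.70 and 3.17, from 53, 76 and 140 reads, highest in G418 A. The CDS of its listed transcript is only 387 nt, not counting the first 18 nt and last 15 nt. It ends at a stop codon other than the MANE Select stop. ZNF76, on chromosome 6, had 1.93, 1.56 and 2.97, from 7, 15 and 32 reads. In all, 9 members (6.25%) were above 1 in every library, against 2.36% of other genes.

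Pooled over genes, readthrough was higher in G418 A than in both untreated libraries, in the members as in other genes. The ribosome readthrough score (RRTS) is the read density from the normal stop codon to the next in-frame stop codon, without the first 6 nt, over the density of the CDS. Pooled over the members, it was 5.02% (exact Poisson 95% interval 3.78 to 6.53, 55 reads) and 4.09% (3.22 to 5.13, 75 reads) in the untreated libraries, and 28.9% (26.2 to 31.9, 411 reads) in G418 A. For other genes it was 1.99% (1.93 to 2.06), 1.54% (1.499 to 1.585) and 24.7% (24.5 to 24.9). The intervals cover counting error only. Against untreated means of 4.55% ± 0.65 (SD, n = 2) and 1.77% ± 0.32, the G418 value was 6.36-fold higher in members and 14.0-fold higher in others. The paper reports that untreated 3′UTR reads did not keep the CDS reading frame. The untreated reads on which both folds rest are thus not shown to be readthrough. A lower fold in members, whose untreated score was higher, does not show a weaker effect of G418.

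By gene, the test of readthrough reads per CDS read called 0 of 144 members higher and 0 lower (edgeR quasi-likelihood test, lowest adjusted p = 0.670), against 1.84% and 0.0% of all transcripts. At an unadjusted p under 0.05 there was 1 member (0.694%), against 5.75% of all transcripts. DESeq2 called 0 at the adjusted threshold, where it gave an adjusted p for 1 member only. At the unadjusted threshold it called 2 of the 89 members it tested. The share over all transcripts was not counted for this, so nothing is read from it. In G418 A, 81 members (56.3%) had a readthrough read, against 70.0% of other genes, and for 75 (52.1%) the RRTS was above both untreated values, against 67.0% of all transcripts. At CDS density the readthrough region of the median member would have held 4.40 reads in G418 A, against 13.5 for other genes, and for 58 members fewer than 3. A score of the usual size was therefore not detectable in many members at this depth.

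The comparison was repeated where more reads could be had. Among transcripts that would have held 10 or more reads at CDS density (35 members and 3861 others, a limit chosen after the values were seen), readthrough reads were found in 85.7% and 86.5%. The pooled RRTS of these was 22.2% (19.4 to 25.3) in members and 23.9% (23.7 to 24.1) in others, and the median 23.7% and 19.7%. In the untreated libraries the same members had 2.24% (1.31 to 3.59) and 3.20% (2.29 to 4.33), against 1.82% and 1.43%, so that the intervals overlapped in Untreated A and not in Untreated B. ZNF207 had 0 readthrough reads and alone made up 21.1% of the reads expected over all members in G418 A. Without it the 34 members had 3.28% (1.91 to 5.26), 4.38% (3.14 to 5.94) and 31.4% (27.5 to 35.8), above the scores of others in each library. By mean CDS counts the pooled G418 score was 35.4% in members against 26.3% in others in the lowest range (64 to 127.7), 44.4% against 33.3% in the middle range (up to 255.7), and 14.0% against 23.5% in the highest (23 members, from 259.3). Without ZNF207 the highest range gave 27.7% (22.1 to 34.3, 22 members), and all members together 36.7%.

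Stop codon identity ordered the members in part as it did other genes. In G418 A the pooled RRTS at UGA was 51.3% (44.4 to 59.0, 55 members), above the 31.8% of other genes. At UAG it was 14.2% (11.6 to 17.3, 38 members), below 20.2%, but 24.9% (20.2 to 30.2) without ZNF207. At UAA it was 34.3% (28.3 to 41.1, 51 members), above 15.4%, so that UAA ranked over UAG in members and under it in others. The medians over genes were 33.4%, 0% and 0% in members and 25.9%, 15.2% and 6.96% in others, and at UAG and UAA under 50% of members had a read (47.4% and 49.0%). ZNF207 is a UAG gene, and ZNF460, a UAA gene, gave 26 of the 115 readthrough reads at UAA. The rank of UAA over UAG thus rests in part on single genes, and the UAA score was not computed without ZNF460. In the untreated libraries the UAA members had 9.54% and 4.76%, the UGA members 4.67% and 7.41%, and the UAG members 2.86% and 1.73%, with UGA and UAA trading places. Weighting other genes to the stop codon use of the members changed their score in G418 A from 24.7% to 22.9%.

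**Figure D3:**
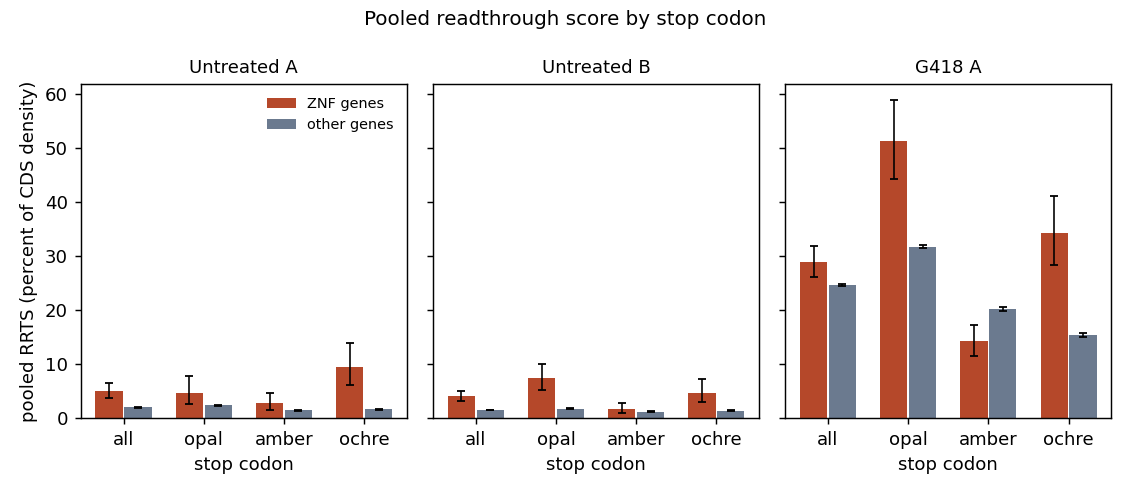
Pooled RRTS (y axis, percent of CDS density) of ZNF genes and of other genes in each library, over all stop codons and by stop codon, where opal is UGA, amber UAG and ochre UAA. Error bars are exact Poisson 95% intervals. In G418 A the bars of the members reach 51.3% at opal, 14.2% at amber (24.9% without ZNF207) and 34.3% at ochre, against 31.8%, 20.2% and 15.4%.

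The group with a match to the KRAB pattern again stood apart in its values, with 54 of its members on chromosome 19. The members without a match may include genes with a KRAB domain that the pattern missed. It had fewer CDS counts behind it than members without a match (median of means 100.2 against 155). Its 64 members had a pooled RRTS of 13.0% (9.17 to 17.96), 8.80% (6.35 to 11.9) and 58.1% (50.3 to 66.8). The 76 members without a match had 1.90% (1.06 to 3.14), 2.50% (1.72 to 3.51) and 18.7% (16.2 to 21.5), against the 2.01%, 1.55% and 25.04% of other genes without a match. Without ZNF207 the latter members had 2.73%, 3.39% and 26.2% (22.7 to 30.1). In every library the counting intervals of the KRAB group and of the rest did not overlap, with ZNF207 or without it. These intervals leave out the spread between genes, and the difference between the groups was not tested. Reads of near-identical paralogs can be credited to the wrong copy after the stop codon as in the CDS. The 41 other genes with 5 or more fingers had 3.79%, 3.48% and 47.9%, against 8.50%, 6.42% and 41.0% for the 112 members with as many.

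The readthrough reads of the members were spread over many genes in G418 A and few in the untreated libraries. The 5 genes with the most reads held 24.3% of them in G418 A, and 52.7% and 56.0% in Untreated A and Untreated B. Readthrough reads appeared in both untreated libraries for 7 members, in 1 of them for 23 (12 and 11), in G418 A alone for 59 and in no library for 55. For 8 members they appeared without G418 and not with it. By library, 13.2%, 12.5% and 56.3% of members had a readthrough read, against 19.5%, 17.9% and 70.0% of other genes. The overlaps between libraries were not counted in other genes, and they depend on depth.

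ZNF460, with UAA and then C, had 0, 0 and 26 readthrough reads, the most of any member. Its RRTS in G418 A was 104% (67.9 to 152), and 0 reads allowed a score of up to 15.4% and 8.52% in the untreated libraries (3 reads). ZNF282 (UAGG), which codes for a repressor that binds the HTLV-1 promoter, had 0, 0 and 22 reads, which made a G418 score of 54.6%. Neither gene had a readthrough read in an untreated library.

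ZNF593 (UGAC), whose protein takes part in making the large ribosomal subunit, had 0, 4 and 19 reads, an RRTS of 0%, 17.1% and 136%. ZNF622 (UGAG), another factor of large subunit maturation, had 0, 4 and 17 reads, 0%, 17.3% and 89.6%. ZNF264 (UGAG) had 0, 0 and 15 reads, 98.6% in G418 A. These genes were ranked by their reads in G418 A, so a high value there follows from the choice. ZNF274 (UAGC), a KRAB protein that recruits SETDB1 to the 3′ ends of other zinc finger genes, had 0, 2 and 12 reads, 0%, 13.0% and 119%. ZNF253 (UAAU) had 0, 2 and 11 reads, 0%, 18.3% and 223% (112 to 400), on a CDS with fewer reads in G418 A, as given with the largest negative changes.

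ZNF302 (UAGA) was unlike the rest of those with many reads. It had 9, 13 and 16 readthrough reads, an RRTS of 15.9% (7.26 to 30.1), 11.9% (6.34 to 20.4) and 20.9% (11.9 to 33.9), and these intervals overlap. With a region of 447 nt, it gave the most readthrough reads of any member in each untreated library. Scores above 100% were found for 24 members in G418 A (16.7%, against 7.53% of other genes), 3 in Untreated A and 2 in Untreated B. A score above 100% means more reads per base after the stop codon than before it.

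ZNF207 was at the other end. With 2734 CDS counts in G418 A, its region held 0 readthrough reads (0 and 0 in the untreated libraries), which allowed a score of up to 1.0% (3 reads). The stop codon of its listed transcript is not the MANE Select stop, and whether the transcript is the one translated was not tested. ZNF24 (UAAG) had 2, 1 and 0 reads, and 0 reads allowed up to 7.90% in G418 A. ZNF644 (UAGA) had 0 in all libraries, but its region of 18 nt allowed a score of up to 127%, so that nothing could be read from it.

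**Figure D4:**
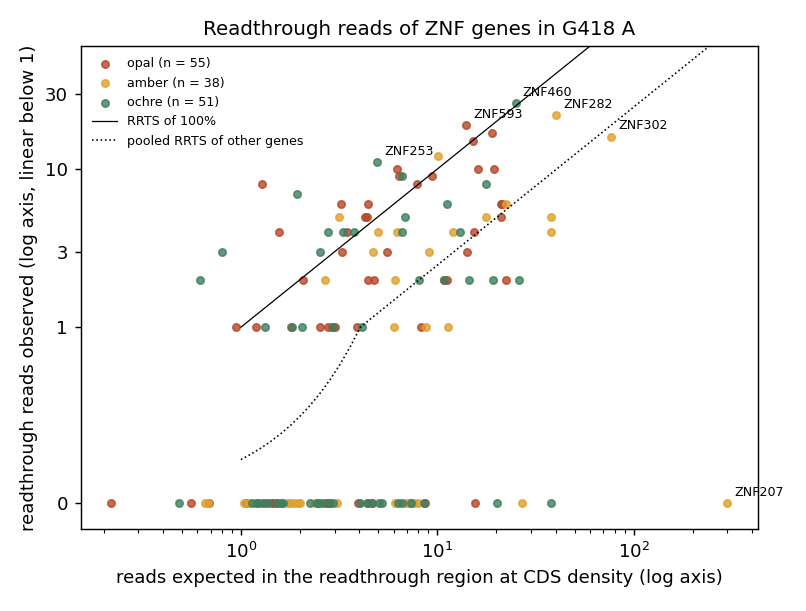
Readthrough reads of each ZNF gene in G418 A (y axis, log scale, linear below 1) against the reads its region would hold at CDS density (x axis, log scale), by stop codon (opal UGA, amber UAG, ochre UAA). The solid line marks an RRTS of 100% and the dotted line the pooled 24.7% of other genes. ZNF460 and ZNF593 lie on or above the solid line, ZNF302 near the dotted one and ZNF207 at 0.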

How the data were processed

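Ribosome-protected fragments of 3 HEK293T libraries (Untreated A, Untreated B, G418 A) were analysed from the authors' per-transcript tables. The authors aligned reads to hg38 with STAR, kept primary alignments, assigned fragments of 28 to 35 nt to the A site and kept 1 transcript per gene. The CDS counts were deposited by the authors as whole numbers. RPM and RPKM values were also deposited by the authors, as was the RRTS, a ratio of RPKM densities. RPM steps gave whole reads for 100.0% of values (tolerance 0.01 reads), and these recovered reads were used for 5′UTRs and readthrough regions. Deposited CDS counts were 1 lower than recovered reads for 9080 of 9099 transcripts in Untreated A, 283 of 9311 in Untreated B and 72 of 9370 in G418 A. The negative 5′UTR densities of very short 5′UTRs were replaced by values computed from reads and length.

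CDS counts were tested with edgeR 4.0.16 (R 4.3.3, TMM, quasi-likelihood, two-sided) over the 7081 transcripts that each table listed and whose mean was 64 counts or more, and DESeq2 1.42.0 was the alternative. Readthrough reads were tested in the same way with the log of CDS reads as offset and regions of at least 18 nt. Calls were made at an adjusted p under 0.05. The fits were tested on simulated data. Lists were described and not tested. Depth was 5857230 to 9477972 reads, and intervals are exact Poisson (scipy 1.17.1). A score from 0 reads was limited at 3 reads.

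Stop codon positions and sequences, fingers (C, 2 to 4 residues, C, 12 residues, H, 3 to 5 residues, H), the KRAB A-box pattern and upstream ATGs were read from GENCODE v44 on hg38, matched for 140 of 144 members by transcript, CDS length and stop signal. Genes named are the 5 largest changes in each direction outside both untreated libraries, the 5 with most CDS counts, the 8 with most readthrough reads in G418 A, the 3 with most CDS counts and 0 readthrough reads there, the 5 with highest 5′UTR occupancy (20 or more reads), those at the count minimum, and the 5 co-repressor genes of smallest p, unless stated. The members, lists and tests were chosen with earlier results of these data known.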

Additional observations from a re-analysis of the deposited data

How the results depend on the processing

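In the CDS test and the readthrough test, 0 members were called in either direction under each alternative that gave a test, which leaving out an untreated library could not, since no residual degrees of freedom remain. The median log2 change of the members, -0.10, was -0.050 with depth taken as the total of listed reads, a scaling that also moved the median of all transcripts from 0.00 to 0.06, and -0.12 with a doubled count minimum, and lay between -0.093 and -0.088 without 1 untreated library. The difference from other genes lay between -0.13 and -0.10 under each alternative. The 10 genes named for their CDS change were picked for lying outside both untreated libraries. Leaving out 1 untreated library could therefore not turn their direction. The other alternatives used the same 3 libraries, so that keeping the direction in 73 of 73 recomputed values is no separate support. Of these values, 0 passed the adjusted test. The pooled readthrough score of the members in G418 A, 28.9%, was 24.3% with regions of at least 60 nt, 38.3% with MANE Select stop codons only, 36.7% without ZNF207, 22.2% where 10 or more reads were expected, 35.4%, 44.4% and 14.0% in the 3 count ranges, and 47.6% as the mean of the deposited scores. Its ratio to other genes, 1.17, was 1.06, 1.43, 1.49, 0.930, 1.35, 1.33, 0.597 and 1.40 under the same alternatives in that order, so that its direction turned where 10 or more reads were expected and in the highest count range. Without ZNF207 these ratios were 1.31 and 1.18 (scores of 31.4% and 27.7%), so that neither reversal was seen without this 1 gene. The G418 fold of the members, 6.36, was 8.18 where 10 or more reads were expected, 5.17 in the lowest and 9.64 in the highest count range (8.21 and 10.1 without ZNF207 where 10 or more reads were expected and in the highest range), and 5.77 to 7.07 without 1 untreated library, against 12.4 to 16.01 for other genes. The ratio of median 5′UTR occupancy to other genes, 5.42, was 4.34 with the doubled minimum, 3.44 with 5′UTRs of at least 50 nt, 2.70 against others of like 5′UTR length (2.56 with an upstream ATG and 3.07 without), and 3.07 and 4.38 in the upper count ranges. The G418 to untreated ratio of pooled 5′UTR occupancy, 0.906, was 0.818 with the doubled minimum, and turned to 1.0004 with no upstream ATG and to 1.04 without ZNF146. The count ranges, the limit of 10 expected reads and the settings by MANE Select, upstream ATG, ZNF207 and ZNF146 were chosen after seeing the data. No paired analysis was possible because the groups share only the letter A. Depth limits the readthrough of single members, as given with the reads expected.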
